A study of Bos taurus with 20 samples.

Results

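The IL-6 cytokine family and its gp130 receptors were followed through 10 genes in clonal mesenchymal stem cell (MSC) populations of cattle. The genes were the cytokines IL6, IL11 and LIF, the receptor subunits IL6ST (gp130), IL11RA, LIFR, OSMR and LEPR, the transcription factor STAT3 and the inhibitor SOCS3. They were taken by symbol from the table of gene counts, and all 10 were among its 33063 named genes. Of these, 9 passed the filter on low counts and were tested, and LEPR, which had no counts, was not.

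Cytokines of this family bind a receptor chain of their own and then recruit gp130, the signalling chain they share. IL-6 binds IL6R and IL-11 binds IL11RA, LIF acts through LIFR with gp130, and oncostatin M acts through OSMR or LIFR with gp130. The chains activate JAK kinases, which phosphorylate STAT3, and STAT3 induces SOCS3, which binds gp130 and limits the signal. Leptin signals through LEPR, a related receptor that does not use gp130. Stromal cells of adipose tissue are known to secrete IL-6, and IL-11 was described early as a factor that inhibits the formation of fat cells.

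The study asked how MSC clones able to form adipocytes differ from clones that are not, before differentiation. MSCs came from the inguinal or perirenal visceral fat of Holstein Friesian x Aberdeen Angus calves of 1 to 6 months, were expanded on plastic with fetal bovine serum and bFGF, and were sorted as single cells. Each clone was grown from a sorted cell, and its RNA came from an undifferentiated part while other parts were tested for differentiation. Clones that formed adipocytes in a first test and again after further expansion were called adipogenic (A). Those that failed the first test were called non-adipogenic (N). The A clones sequenced were chosen for the highest share of lipid-stained cells after differentiation. There were 10 A and 10 N clones with 1 library each, matched within the animal: 1 of each kind from animals 17 and 20, and 4 of each kind from animals 22 and 23.

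Counts on named genes ranged from 14615493 to 43111345 per clone. Levels are given as CPM, the count of a gene relative to its library's total and TMM factor, with mean ± SD for each group (n = 10). CPM is not divided by gene length, so levels are compared between clones and never between genes. Fold changes are log2 of A against N clones from edgeR's quasi-likelihood test with the animal as a block, with p-values adjusted by Benjamini-Hochberg over 12900 genes and called under 0.05. Clones were separate populations, but clones of 1 animal share that animal, so p-values measure the spread between these clones. Because animals 17 and 20 have 1 clone of each kind, leaving out either clone removes that animal from the comparison. Only transcripts were measured, not secreted cytokines, phosphorylated STAT3 or receptors at the cell surface.

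The MSC label was checked on 6 markers (ENG, THY1, NT5E, ITGB1, CD44 and PDGFRA), whose summed level was 2723 to 5067 CPM in N clones and 3302 to 5414 CPM in A clones. The sum does not show that each marker is present, since N clone 22-5, at 2723 CPM, had almost no THY1 (0.394 CPM) and NT5E (0.507 CPM). In this clone and N clone 22-9, the summed level of 8 mesothelial markers reached 9179 and 6499 CPM, against at most 276 CPM in the other N clones and 7.71 to 1093 CPM in A clones. KRT8, a keratin of simple and mesothelial epithelia, was at 4769 and 2722 CPM in these clones. It was at 584, 445 and 159 CPM in A clones 22-11, 22-16 and 23-62, and at most 13.2 CPM in the remaining clones. Results for the IL-6 family are therefore also given without clones 22-5 and 22-9, a choice made after these values were seen. A clones 22-11, 22-16 and 23-62 were kept in those fits. Of the macrophage markers, C1QA, C1QB and C1QC had no counts and PTPRC (CD45) at most 7 in any clone. CD68 and MRC1, the only 2 tested, were both called higher in A clones (100%, against 20.6% of all genes). The 12 macrophage markers summed to 1.62 to 13.8 CPM in N and 3.59 to 23.0 CPM in A clones. The 8 endothelial markers, of which CLDN5 had no counts, summed to 1.35 to 47.1 and 9.50 to 104 CPM. Of the 4 endothelial markers tested 1, ERG, was called, higher in A clones (25%, near the 20.6% of all genes). For 1 of the 4 the log2 fold change was below 0.

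Between A and N clones, 4 of the 9 tested genes changed (44.4%), while 20.6% of all genes tested were called. IL6 and IL11 were higher in A clones, a direction in which 10.3% of all genes were called. IL11RA and IL6ST were lower in A clones, as were 10.3% of all genes. IL6, IL11 and IL6ST changed by at least 2-fold, against 5.76% of all genes. The median log2 fold change was 0.39 over the 9 genes and -0.01 over all genes tested, and the median size of the change, whatever its direction, was 0.85 and 0.25. Without N clones 22-5 and 22-9, 3 of the 9 genes were called (IL6, IL11 and IL11RA). Without animal 23, which gave 8 of the 20 clones, 0 were called by edgeR and 3 had an unadjusted p under 0.05, against 4 with all clones. The share of all genes called is not given for these smaller fits, so the lower counts cannot be read as particular to this family. In 0 of the 9 genes did all A clones lie apart from all N clones, as they did in 0.318% of the genes tested.

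**Figure D1:**
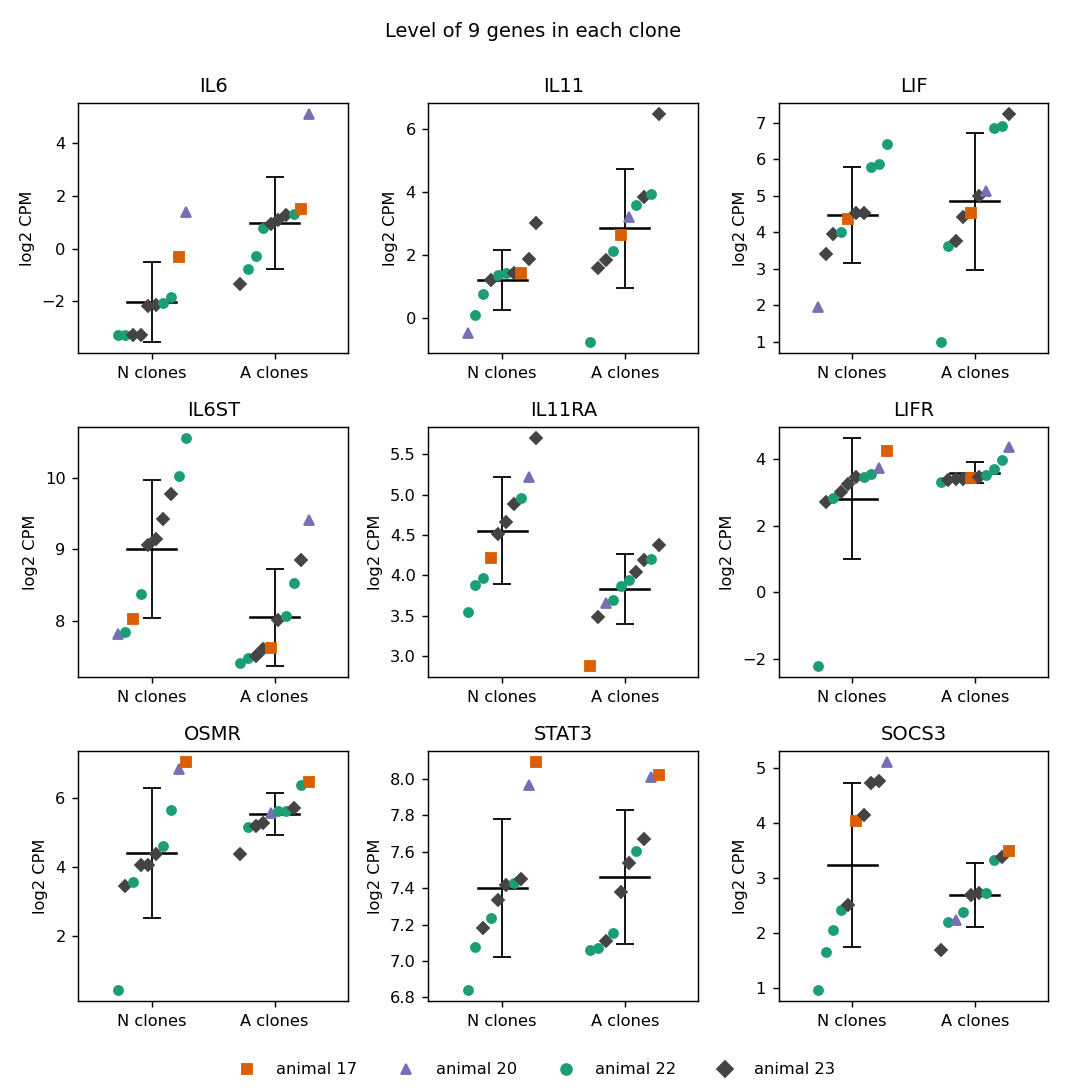
Level of 9 genes of the IL-6 family in each clone, as log2 CPM with a prior count of 2 (vertical axes differ between panels). Each symbol is a clone, coloured and shaped by animal, and the bars are mean and SD over 10 clones. IL6 and IL11 sit higher in A clones, IL11RA and IL6ST sit higher in N clones, and the groups overlap in every panel.

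IL6, which encodes the founding cytokine of the family, was close to the limit of detection in N clones. It was at 0 CPM in the lowest N clone, 0.119 in the median and 2.51 in the highest, with 4 N clones at 0 counts and at most 41 counts in any. In A clones it was at 0.292, 1.91 and 34.1 CPM, with 8 to 696 counts. All but 2 of the N clones were lower than all A clones, and the exceptions were N clones 17-23 and 20-15. Its mean was 0.377 ± 0.779 CPM for N and 4.84 ± 10.3 CPM for A clones, and IL6 rose by 3.78 on the log2 scale (13.7-fold, standard error 0.565, edgeR adjusted p = 0.000792). In each of the 4 animals A clones were higher, by 1.80, 3.71, 2.87 and 3.20 in mean log2 CPM in animals 17, 20, 22 and 23. A clone 20-106 held 34.1 CPM of IL6, while the next A clone held 2.72. Without clone 20-106 its animal left the comparison, and with it N clone 20-15, the highest N clone. The log2 fold change was then 3.77, and 3.78 when N clone 20-15 was left out instead. Without N clones 22-5 and 22-9, which had no IL6 counts, it was 3.52 (edgeR adjusted p = 0.00208). Since each library is bulk RNA, fewer cells that express a gene and less of its RNA per cell cannot be told apart.

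IL11, whose product signals through IL11RA and gp130, was also higher in A clones. N clones lay at 0.613, 2.52 and 8.0 CPM (lowest, median and highest), and A clones at 0.486, 7.61 and 87.8 CPM. The 5 highest A clones exceeded all N clones, whereas A clone 22-121 had less than any of them. The mean was 2.71 ± 2.05 CPM for N and 15.5 ± 25.9 CPM for A clones, and IL11 rose by 2.42 on the log2 scale (5.35-fold, standard error 0.646, edgeR adjusted p = 0.0164). The difference had the same direction in 4 of 4 animals, at 1.2, 3.68, 1.31 and 1.55 in mean log2 CPM. It depended on A clone 23-14, the highest, without which the log2 fold change was 1.66 (edgeR adjusted p = 0.0526). Without N clones 22-5 and 22-9 it was 2.51 (edgeR adjusted p = 0.0371). Over all alternatives tried the adjusted p of IL11 ran from 0.000304 to 0.254.

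LIF, which encodes leukaemia inhibitory factor, varied strongly within both groups. Its lowest, median and highest levels were 3.74, 21.7 and 85.6 CPM in N clones and 1.88, 27.3 and 150 CPM in A clones. The groups overlapped, with 3 A clones above all N clones and 1 below all of them. The means were 31.0 ± 26.1 and 52.4 ± 54.2 CPM, and the log2 fold change of 1.03 did not pass the threshold (standard error 0.639, edgeR adjusted p = 0.254). The animals went different ways, with differences of 0.15, 3.19, -0.92 and 1.0 in mean log2 CPM in animals 17, 20, 22 and 23. A clones 23-14, 22-11 and 22-16, at 150, 121 and 115 CPM, held the highest LIF levels.

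**Figure D2:**
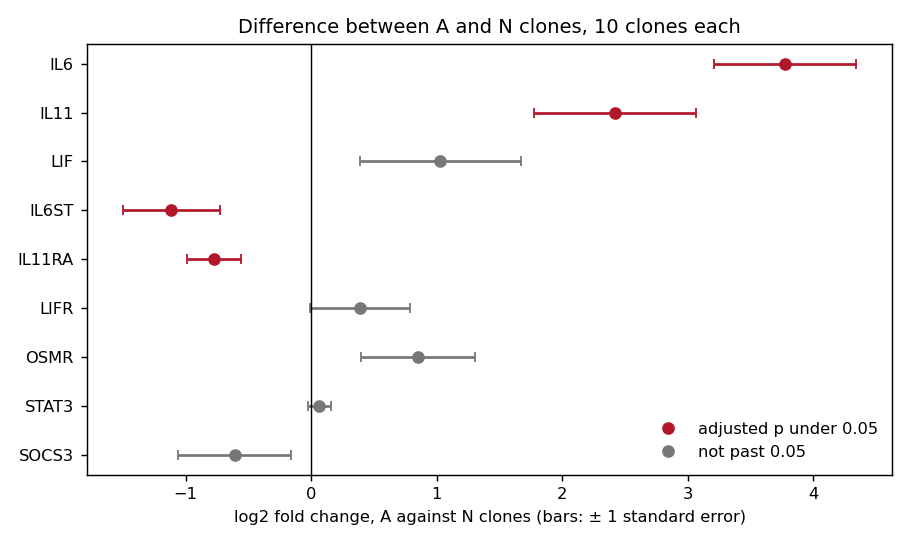
Log2 fold change of A against N clones for 9 genes of the IL-6 family, with bars of 1 standard error (10 clones a group, animal as a block). IL6 (3.78) and IL11 (2.42) are called to the right of 0 and IL6ST (-1.11) and IL11RA (-0.77) to the left. The other 5 genes, in grey, did not pass an adjusted p of 0.05.

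IL11RA, the chain that binds IL-11, was lower in A clones. N clones lay at 11.6, 23.9 and 51.8 CPM and A clones at 7.27, 14.9 and 20.8 CPM (lowest, median and highest). The 6 highest N clones exceeded all A clones, which spread less. From a mean of 25.7 ± 12.2 CPM for N to 14.7 ± 3.96 CPM for A clones, IL11RA fell by 0.77 on the log2 scale (1.71-fold lower, standard error 0.217, edgeR adjusted p = 0.0203). Each of the 4 animals had less in its A clones, by -1.33, -1.56, -0.16 and -0.91 in mean log2 CPM. The call was lost when N clone 22-9 was left out (edgeR adjusted p = 0.0502) and kept without both 22-5 and 22-9 (log2 fold change -0.75, edgeR adjusted p = 0.0455), with a range of 0.0048 to 0.664 over all alternatives.

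IL6ST encodes gp130 itself. Its level was 225, 548 and 1503 CPM in the lowest, median and highest N clones and 170, 227 and 681 CPM in A clones. N clones 22-5, 22-9, 23-23 and 23-10 exceeded all A clones, and 5 A clones had less than any N clone. The means were 624 ± 416 and 295 ± 166 CPM, and the log2 fold change was -1.11 (2.16-fold lower, standard error 0.385, edgeR adjusted p = 0.0490). In animals 17, 22 and 23 the level was lower in A clones, by -0.42, -1.33 and -1.36 in mean log2 CPM, and in animal 20 it was higher by 1.59. Of the 20 fits that left out 1 clone each, 5 kept this call, against 20 for IL6 and 19 each for IL11 and IL11RA, with edgeR adjusted p from 0.0135 without N clone 20-15 to 0.0903 without A clone 22-27. Without N clones 22-5 and 22-9, which had the highest IL6ST levels, the log2 fold change was -0.54 (edgeR adjusted p = 0.261), and the part of their mesothelial marker RNA in the result was not tested.

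LIFR, the LIF receptor chain, had a narrow range in A clones. A clones lay at 9.85, 10.7 and 20.2 CPM and N clones at 0.113, 10.1 and 18.5 CPM (lowest, median and highest). The lowest N clone was 22-5, with 2 counts, and the 4 next lowest N clones were also lower than any A clone. The means of 9.6 ± 4.82 CPM for N and 12.2 ± 3.25 CPM for A clones gave a log2 fold change of 0.39 (standard error 0.399, edgeR adjusted p = 0.504), and of 0.15 without clones 22-5 and 22-9.

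OSMR, the oncostatin M receptor chain, spread widely in N clones. N clones lay at 1.24, 18.5 and 130 CPM and A clones at 20.5, 47.6 and 87.8 CPM. Among N clones 5 had less than any A clone and 2, from animals 17 and 20, had more, so that the A clones fell within the range of the N clones. The SD of log2 CPM was 1.89 in N and 0.605 in A clones for OSMR, 1.81 and 0.327 for LIFR, and 1.48 and 0.585 for SOCS3. The LIFR value for N clones includes clone 22-5, at a log2 CPM of -2.21. The other N clones lay at 2.72 to 4.22 and the A clones at 3.31 to 4.34. For LIF and IL11 the SD was smaller in N clones, at 1.31 against 1.88 and 0.953 against 1.89, and these spreads are given without a test. The mean of OSMR was 39.5 ± 45.6 CPM for N and 49.7 ± 20.8 CPM for A clones, and neither the log2 fold change of 0.85 (standard error 0.454, edgeR adjusted p = 0.184) passed the threshold nor that of 0.52 without clones 22-5 and 22-9 (edgeR adjusted p = 0.267). The difference was -0.57 and -1.30 in mean log2 CPM in animals 17 and 20, and 2.13 and 1.16 in animals 22 and 23.

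LEPR, the leptin receptor, was listed at 0 counts in all 20 clones, and a count of 0 allows a level of up to 0.0762 to 0.216 CPM (3 counts in a clone, counting error only). Its neighbour LEPROT, named after its values were seen, was at 56.1 to 140 CPM in the same clones. RefSeq's annotation, of a different build from that of the counts, lists 0 genes that overlap LEPR. How reads that fall on 2 genes were treated is not given in the sources used here, and the value 0 describes this table. LEP, the leptin gene, had at most 4 counts in any clone and was not tested.

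STAT3, the transcription factor downstream of all these receptors, had the smallest fold change of the 9 genes. It was at 115, 166 and 273 CPM in the lowest, median and highest N clones and at 134, 176 and 260 CPM in A clones. Its means of 175 ± 49.6 and 182 ± 48.1 CPM gave a log2 fold change of 0.07 (standard error 0.0947, edgeR adjusted p = 0.650), and the groups overlapped almost fully. In both groups the clones of animals 17 and 20 were the highest, between 250 and 273 CPM.

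SOCS3, the feedback inhibitor that STAT3 induces, was at 1.86, 10.9 and 34.3 CPM in N clones and at 3.14, 6.45 and 11.2 CPM among A clones. The 5 highest N clones exceeded all A clones, and the 2 lowest, 22-5 and 22-9, had less than any. The means were 14.1 ± 11.8 and 6.83 ± 2.76 CPM, and the log2 fold change of -0.61 did not pass the threshold (standard error 0.452, edgeR adjusted p = 0.342). Without clones 22-5 and 22-9 it was -1.02 (edgeR adjusted p = 0.124), and without animal 22 it was -1.58 (edgeR adjusted p = 0.0483). In mean log2 CPM SOCS3 was lower in A clones of animals 17, 20 and 23, by -0.54, -2.87 and -1.41, and higher in those of animal 22, by 0.89.

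**Figure D3:**
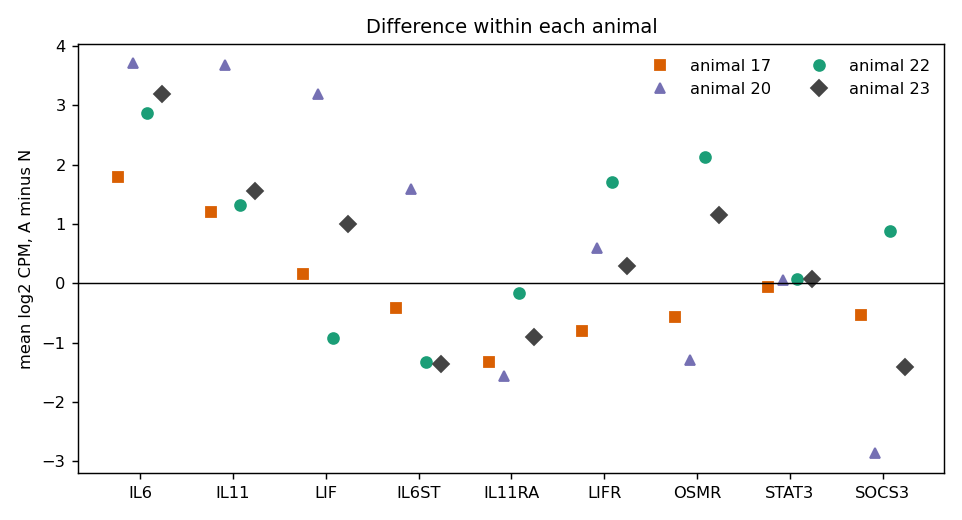
Difference in mean log2 CPM between the A and N clones of each animal (vertical axis, A minus N) for 9 genes of the IL-6 family. Animals 17 and 20 have 1 clone of each kind, animals 22 and 23 have 4. All 4 animals lie above 0 for IL6 and IL11 and below 0 for IL11RA, while LIF, IL6ST, LIFR, OSMR, STAT3 and SOCS3 have animals on both sides.

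An effect of the animal on the A against N difference could be tested in animals 22 and 23, with 16 clones. In edgeR's test of the interaction 0 of the 9 genes passed an adjusted p of 0.05, while 0.0288% of all 13880 genes were called. At an unadjusted p under 0.05 there was 1 of the 9, SOCS3, and 1273 of the 13880 genes, a share of similar size. The SOCS3 difference in animal 23 minus that in animal 22 was -2.41 on the log2 scale (standard error 0.672, edgeR adjusted p = 0.344). DESeq2's Wald test gave the same interaction an adjusted p of 0.0445, and called 1 of the 9 genes. For IL6 the interaction was 0.87 (standard error 1.38) and for IL11RA -0.70 (standard error 0.443), neither past an unadjusted p of 0.05.

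Relations between members were computed over the 10 clones of each group apart, for 14 relations in all, as correlations of log2 CPM with p from 100000 permutations. In A clones, LIF and IL11 varied together (Pearson r = 0.909, Spearman rho = 0.915, permutation p = 0.0003 and 0.00057, adjusted over the 14 relations 0.00245 and 0.00798). The extremes were A clone 22-121, lowest in both genes, and A clone 23-14, highest in both. Centred within animals 22 and 23, r was 0.920 (n = 8, permutation p = 0.00282), and without the 2 clones farthest from the median of LIF it was 0.804 (n = 8, permutation p = 0.0158). In N clones r was 0.225 (permutation p = 0.536), and the difference between the groups was not tested.

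In N clones, IL6ST was highest where OSMR and LIFR were lowest. For OSMR, r was -0.877 and rho -0.818 (permutation p = 0.00035 and 0.00589, adjusted 0.00245 and 0.0275). For LIFR, r was -0.706 and rho -0.879 (permutation p = 0.00058 and 0.00155, adjusted 0.00271 and 0.0109). N clone 22-5 was the extreme of both relations, with 1503 CPM of IL6ST, 1.24 CPM of OSMR and 0.113 CPM of LIFR. Without clones 22-5 and 22-9, r was -0.804 for OSMR (n = 8, permutation p = 0.0205, adjusted 0.0956) and -0.721 for LIFR (n = 8, permutation p = 0.0386, adjusted 0.135), so that with 8 clones neither passed the adjusted threshold. Centred within animals 22 and 23, r was -0.836 for OSMR and -0.748 for LIFR (n = 8, permutation p = 0.0101 and 0.0256). In A clones, IL6ST and OSMR had r = -0.115 (permutation p = 0.745) and IL6ST and LIFR r = 0.748 (rho = 0.467, permutation p = 0.0179, adjusted 0.0501). OSMR and LIFR are next to each other on the bovine genome in RefSeq's annotation.

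**Figure D4:**
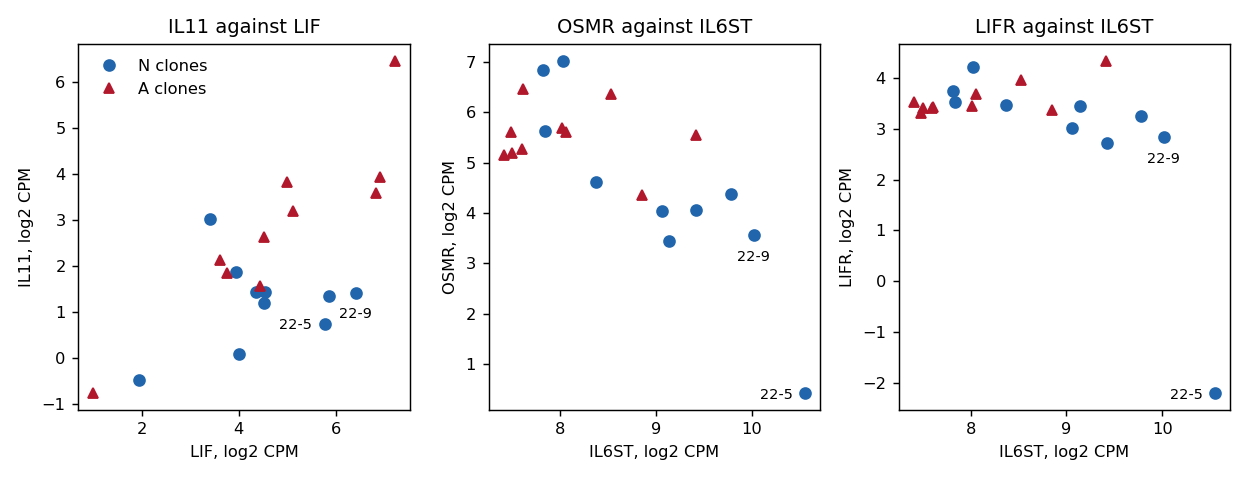
IL11 against LIF, OSMR against IL6ST and LIFR against IL6ST, each axis in log2 CPM and each point a clone (blue circles N, red triangles A). N clones 22-5 and 22-9 are named. IL11 climbs with LIF among A clones (r = 0.909), and OSMR declines with IL6ST among N clones (r = -0.877).

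In A clones SOCS3 had no relation past the threshold with the 3 cytokines, since r was 0.0114 with LIF, -0.0428 with IL6 and -0.265 with IL11 (permutation p = 0.976, 0.912 and 0.468). In N clones SOCS3 was lower where LIF was higher (r = -0.771, rho = -0.745, permutation p = 0.00708 and 0.0170, adjusted 0.0248 and 0.0596). The relation was weaker within animals, where r was -0.318 when centred within animals 22 and 23 (n = 8, permutation p = 0.448). With fewer clones r stayed negative but no longer passed the threshold, at -0.667 without the 2 clones farthest from the median of LIF (n = 8, permutation p = 0.0797) and -0.625 without clones 22-5 and 22-9 (n = 8, permutation p = 0.0877). LIF and IL6 had r = 0.429 in A and -0.652 in N clones (permutation p = 0.204 and 0.0452, adjusted 0.407 and 0.106).

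The genes whose pattern over the 20 clones was most like that of a called member are given as a description, from Pearson's r against the other 12899 genes tested. Both groups and all animals share in these values, which therefore hold the difference between A and N clones. For IL6 they were IL21R, another cytokine receptor gene (r = 0.899, with a median of 16 counts per clone), LOC618256 (0.877) and GALNT15 (0.864). For IL11 they were the bicarbonate transporter gene SLC4A7 (0.864), the kinase gene PLK3 (0.846) and BZW2 (0.830), and SLC4A7 had r = 0.938 within A clones but 0.0376 within N clones. For IL6ST they were HERC6 (0.886), TRAPPC9 (0.859) and TOR1AIP2 (0.857), with r of HERC6 at 0.801 within A and 0.878 within N clones. IL11RA was most like RMI2 (0.848), ARHGAP1 (0.841) and MCUB (0.830).

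The other genes of the pathway were taken from lists of its ligands, receptors, kinases, inhibitors and STAT3 targets. Of 64 such genes 63 were in the table and 53 were tested, and 17 of them changed (32.1%, against 20.6% of all genes), 9 higher and 8 lower in A clones. Their median log2 fold change was 0.03. Without N clones 22-5 and 22-9, 9 of the 53 were called. In that fit 20 had an unadjusted p under 0.05, against 22 with all clones. When N clone 22-9 or either clone of animal 17 was left out, 11 were called.

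Among the other ligands, OSM, which encodes oncostatin M, had at most 2 counts in any clone and was not tested, nor were IL27, EBI3 and LEP. CLCF1 (0.28), CNTF (0.07) and CTF1 (-0.58), 3 other gp130 ligands, had log2 fold changes with edgeR adjusted p of 0.529, 0.830 and 0.428.

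IL6R, the chain that binds IL-6, was at 0.282, 0.614 and 2.54 CPM in the lowest, median and highest N clones and at 0.654, 1.64 and 2.69 CPM in A clones. The change of 0.97 on the log2 scale was positive in 4 of 4 animals but did not pass the threshold (standard error 0.353, edgeR adjusted p = 0.0587). IL27RA, which pairs with gp130 to bind IL-27, rose by 0.69 on the log2 scale, with means of 106 ± 32.4 CPM for N and 181 ± 86.7 CPM for A clones (standard error 0.209, edgeR adjusted p = 0.0285). All 4 animals had more in their A clones, and without N clones 22-5 and 22-9 its edgeR adjusted p was 0.0795. CNTFR, the receptor of ciliary neurotrophic factor, had at most 15 counts in any clone and was not tested.

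Of the 8 kinases and STATs tested, 1 changed (12.5%, below the 20.6% of all genes), namely JAK1, the kinase bound to gp130. It was higher in A clones, at 210 ± 45.2 against 155 ± 42.6 CPM, a rise of 0.43 on the log2 scale (standard error 0.112, edgeR adjusted p = 0.0139) with the same direction in 4 of 4 animals.

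Of the 17 inhibitors and sheddases, 4 changed (23.5%), a share near the 20.6% of all genes. CISH and SOCS2, which encode SOCS-family proteins best known as STAT5-induced inhibitors, rose in A clones, CISH from 2.41 ± 1.52 to 6.58 ± 2.87 CPM and SOCS2 from 2.37 ± 3.57 to 5.07 ± 2.81 CPM. The log2 fold changes were 1.46 and 1.58 (standard errors 0.342 and 0.387, edgeR adjusted p = 0.00852 and 0.0106), and both were higher in A clones in 4 of 4 animals. For SOCS2 the difference in animal 20 was only 0.05 in mean log2 CPM. PIAS2, which encodes a SUMO ligase of the PIAS family, and SOCS4 fell by 0.26 and 0.25 on the log2 scale (standard errors 0.0715 and 0.0737, edgeR adjusted p = 0.0192 and 0.0266). Without N clones 22-5 and 22-9 the log2 fold change was -0.24 for PIAS2 and -0.20 for SOCS4 (edgeR adjusted p = 0.0512 and 0.0861), and CISH and SOCS2 stayed called (edgeR adjusted p = 0.0258 and 0.0283).

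Among the 21 STAT3 target genes tested, 11 changed (52.4%, against 20.6% of all genes). The list moved in both directions, with 5 genes higher and 6 lower in A clones, where 10.3% of all genes were called in each direction, and the median log2 fold change was 0.04. HIF1A, the hypoxia-response factor, had means of 113 ± 29.3 CPM for N and 230 ± 69.1 CPM for A clones, of which 9 exceeded all N clones (log2 fold change 1.01, standard error 0.184, edgeR adjusted p = 0.00221). FOS, the immediate early transcription factor, fell to 92.6 ± 92.3 CPM from 406 ± 192 CPM for N clones, of which 9 exceeded all A clones (log2 fold change -2.54, standard error 0.468, edgeR adjusted p = 0.00251). CEBPB, a factor of early adipogenesis, BCL3 and KLF4 also fell, by 0.89, 0.96 and 0.82 on the log2 scale (edgeR adjusted p = 0.00668, 0.00968 and 0.0171), and were lower in A clones in 4 of 4 animals. The others called were VEGFA, MYC, IL4R and TIMP1, higher in A clones, and CEBPD and TNFRSF1A, lower. Of the 20 fits without 1 clone each, 20 kept the calls of VEGFA and MYC, 15 that of CEBPD, 8 that of IL4R, 7 that of TIMP1 and 6 that of TNFRSF1A. Many genes of this list are known to respond to other signals as well.

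**Figure D5:**
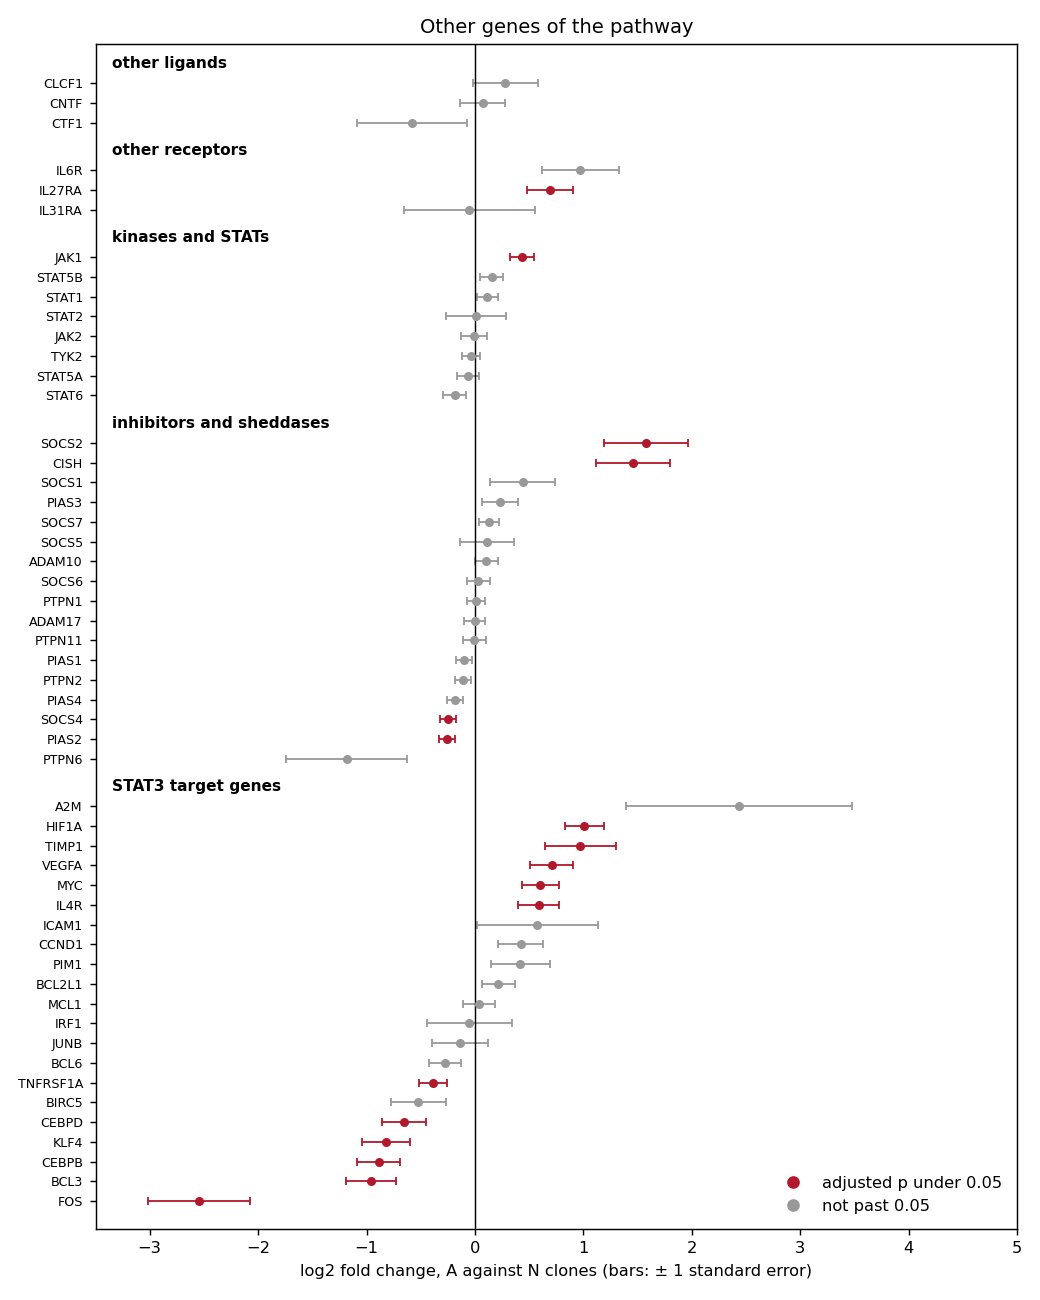
Log2 fold change of A against N clones for 52 other pathway genes, in 5 lists, with bars of 1 standard error. Red marks an adjusted p under 0.05 (17 genes). STAT3 target genes lie on both sides of 0, from FOS (-2.54) to HIF1A (1.01) among those called.

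Other gene groups moved with these results, and their part in them was not tested. Of 14 immediate early genes 7 were called (50%, against 20.6% of all genes), all lower in A clones, with a summed level of 1541 to 4224 CPM in N and 459 to 2383 CPM in A clones. For 4 of the 14 the log2 fold change was above 0. FOS and JUNB are also on the list of STAT3 target genes, so the called FOS is counted in both lists. Of 12 tested NF-kB induced inflammatory genes 3 were called (25%, near the 20.6% of all genes), all higher in A clones: TNFAIP3 (log2 fold change 2.68), the chemokine gene CCL2 (3.49) and PTGS2 (2.00). Without N clone 23-10, 23-22 or 23-23, only TNFAIP3 of this list was called. The list of 18 genes summed to 192 to 1230 CPM in N and 694 to 5433 CPM in A clones, and its highest sum was that of A clone 20-106, followed by 1889 CPM in A clone 17-57. Much of these sums came from CXCL5, which was not called (edgeR adjusted p = 0.149). Its means were 435 ± 267 CPM for N and 849 ± 783 CPM for A clones. IL1B and TNF, genes of inflammatory cytokines, had too few counts to be tested, with at most 15 and 5 counts in any clone. Of 15 proliferation genes 10 were called (66.7%, against 20.6% of all genes), all lower in A clones, with sums of 225 to 881 and 79.6 to 547 CPM, and 3 (AURKB, CDK1 and MCM6) were called without N clones 22-5 and 22-9. That count was 4 without N clone 23-74, 5 without N clone 22-9, 6 when any 1 of N clones 17-23, 20-15 and 22-5 and A clones 17-57 and 20-106 was left out, and up to 14 without another clone. Of 7 tested smooth muscle and pericyte markers 3 were called (42.9%, against 20.6% of all genes). They were NOTCH3, CSPG4 and MYH11, all higher in A clones. That list summed to 129 to 6205 CPM in N and 969 to 9045 CPM in A clones. Of 6 tested mesothelial markers 1, MSLN, was called, lower in A clones (16.7%, below the 20.6% of all genes). The log2 fold change was above 0 for 2 of the 6. Of 5 tested mature adipocyte markers 2, CIDEA and PLIN1, were called, higher in A clones (40%, against 20.6% of all genes). For 1 of the 5 the log2 fold change was below 0. The mature adipocyte markers summed to 5.86 to 33.7 CPM in N and 13.4 to 35.7 CPM in A clones.

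By position in RefSeq's bovine annotation, LIF lies next to OSM, IL6ST next to IL31RA, STAT3 next to STAT5A and LEPR next to LEPROT. IL6ST overlaps 2 annotated genes, MIR2359 and LOC104975244, and whether reads were assigned by strand is not given in the sources used here, so IL6ST counts may hold reads of these genes.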

How the data were processed

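RNA of 20 undifferentiated clones (10 A, 10 N) was sequenced as paired reads from directional libraries. Per the study's methods and the submitters' processing notes, the authors trimmed reads with Trimmomatic 0.36, mapped them with STAR 2.5.2b to ARS-UCD1.2 and counted unique exonic reads with Subread 1.5.2. The values used are the raw counts per gene and clone deposited by the authors. A row without a name (0.113% to 0.333% of counts) was left out. Of the table's columns, 0 belonged to other samples.

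From these counts, edgeR 4.0.16 in R 4.3.3 was used (TMM, default expression filter, robust quasi-likelihood test, animal as block, Benjamini-Hochberg adjustment), with a prior count of 2 for log2 CPM. A and N clones were paired by animal: after subtraction of group means, those sharing an animal had an r of 0.253, 0.193, 0.241 and 0.440 (animals 17, 20, 22 and 23). Among 190 pairs of clones 0 had identical counts. The fits were tested on simulated counts. Alternatives used DESeq2 1.42.0, limma 3.58.1, other normalizations and filters, counts summed per animal, and left-out animals or clones. Gene neighbours come from RefSeq's ARS-UCD2.0 table, a different build from that of the counts, so no coordinates are given.

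The 10 genes and all lists were chosen with earlier results of these data known. All members were named, with at most 5 called genes per pathway list by smallest adjusted p, the main ligands and receptors, and 3 genes most like each called member. The result of 1 pathway gene that was tested is not reported here. TNFAIP3, CCL2, PTGS2, CXCL5, IL1B, TNF, LEPROT and the cell type markers named were picked after values were seen. Depth limits the precision of low genes such as IL6.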

Additional observations from a re-analysis of the deposited data

Results flagged for a closer look

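Of 52 groups of 10 clones examined, 3 held a clone that stood apart from the rest by Dixon's test, where chance alone would give about 2.6. The IL6 level of A clone 20-106 (34.1 CPM) was far above that of the next A clone (2.72 CPM), and the gap was 0.559 of the group's range on the log2 scale. The same clone had the highest SOCS2 level of the A clones, 12.6 against 6.25 CPM, with a gap of 0.529 of the range. N clone 22-5 had the lowest LIFR level, 0.113 CPM (2 counts) against 6.48 CPM in the next N clone, with a gap of 0.766 of the range. It was also the N clone with the highest IL6ST and the lowest OSMR level.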

How the results depend on the processing

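IL6 kept its direction in the 30 alternatives in which it was tested, with log2 fold changes from 3.41 to 4.06, and passed the threshold in 28. It fell below the filter in animals 22 and 23 alone, without animal 17, without animal 20, and under a filter of 10 counts in every clone. The 4 called members became 2 under that filter, 2 with limma-voom and 2 without animal 17, and 0 with counts summed per animal and condition (3 at an unadjusted p under 0.05), without animal 23 (3), in animal 22 alone (2) and in animal 23 alone (5). Fits without 1 clone each gave 2 to 4. The 3 members called at 2-fold or more became 1, 1 and 1 under the first 3 of these settings, 0 under the others, and 1 to 3 without 1 clone. IL6 and IL11 were not tested under the stricter filter. For limma-voom the cause was not tested.

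With no replicate block (the animal left out of the model) 4 members were called, 3 of them at 2-fold or more, and 11 pathway genes instead of 17. The pathway genes called were 0 with summed counts (14 at an unadjusted p under 0.05), 11 without animal 17 and 10 without animal 22. They were 1 without animal 23 (14 at an unadjusted p under 0.05), 1 in animal 22 alone (11) and 2 in animal 23 alone (20), where the main fit had 22. They were 9 without N clones 22-5 and 22-9 (an alternative chosen after seeing the data), and 11 to 19 without 1 clone. The share of all genes called is not given for these alternatives, so a fall in the counts of members or pathway genes cannot be read as particular to them.

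The interaction called 0 members, 1 with DESeq2's Wald test (SOCS3, the cause was not tested) and 0 to 0 without 1 clone. Of the 4 relations past an adjusted p of 0.05, 1 (LIF with IL11 in A clones) was past it when centred within animals, 0 without the 2 farthest clones and 1 (the same relation) without clones 22-5 and 22-9. SOCS3 turned positive without animal 23 (0.12) and in animal 22 alone (0.88). The r of IL6 with SOCS3 turned to 0.218 (centred) and 0.461 (without the 2 farthest clones) in A clones and to -0.103 and -0.131 in N clones. Without the 2 farthest clones the r of IL6ST with OSMR in A clones turned to 0.578 and that of LIF with IL11 in N clones to -0.445. LEPR had no counts, so no alternative gave it a value, and levels of a few counts, such as IL6 in N clones, carry the most counting error.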
